A study of Sus scrofa with 16 samples.

Results

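The genes of thyroid hormone carriage, activation and reception were read in the liver and the colonic mucosa of pigs fed corn starch (CS) or raw potato starch (RPS). They were DIO1, DIO2 and DIO3 (deiodinases), THRA and THRB (nuclear receptors), TTR (transthyretin) and THRSP (a lipogenic gene responsive to thyroid hormone). Probes were taken by name, where the scanner files gave the symbol as the gene name or in brackets in the description. Of the 7 genes, 5 had a probe by this rule, with 10 probes in all of the 43603 on the array, where 6516 gene symbols could be assigned. DIO1 had 2 probes, DIO2 and THRA 1 each, and DIO3 and TTR 3 each. THRB and THRSP had none and were not analysed here under these names. The genes were chosen by name, with the measured diet differences in the liver and the colon and the differences between these tissues on the same arrays in view, so the differences of its members are described with errors and intervals and without p-values of their own. Counts of members past a threshold are given beside the share of all probes past it, also as a description.

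All samples came from castrated male (barrow) Duroc × Landrace × Large White pigs aged 170 d, 4 per diet and tissue. Both diets were based on corn and soybean. The CS pigs received 230 g of purified corn starch per kg of feed from 70 d of age and 280 g per kg from 120 d, and in the RPS pigs that starch was replaced by purified RPS over the whole 100 d. The 4 groups were therefore liver of CS pigs, liver of RPS pigs, colonic mucosa of CS pigs and colonic mucosa of RPS pigs. Feed was withheld from all pigs before slaughter, and 1 pig per pen was sampled.

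Thyroid hormone leaves the thyroid gland mainly as thyroxine, which travels in blood bound to carrier proteins made largely in the liver, among them thyroxine-binding globulin, transthyretin and albumin. Deiodinases are selenoproteins that remove iodine from the hormone. DIO1, long known in liver and kidney, and DIO2 produce the active hormone triiodothyronine, whereas DIO3 inactivates both forms. Triiodothyronine acts through the receptors encoded by THRA and THRB, which bind DNA with retinoid X receptors and control genes of lipid, sterol and energy metabolism in the liver.

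Each probe is a single 60-base oligonucleotide, and the level reported for a gene is the brightness of that oligonucleotide. Probes on which the deiodinase and receptor results rest are printed 5′ to 3′ from the scanner files, in lower case throughout because the whole probe hybridizes. They were chosen as the DIO2 probe, the THRA probe and 1 of the DIO1 probes.
DIO1 A_72_P035401: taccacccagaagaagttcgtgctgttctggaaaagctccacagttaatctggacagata
DIO2 A_72_P165621: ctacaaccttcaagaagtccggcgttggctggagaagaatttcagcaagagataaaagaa
THRA A_72_P088091: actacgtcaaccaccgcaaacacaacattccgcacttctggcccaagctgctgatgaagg
The TTR probes A_72_P302669 and A_72_P698033 have their first 52 of 60 bases in common and are not independent readings. No other probe on the array shares 25 consecutive bases with a member probe. Probe G+C content was 45% for the printed DIO1 probe, 43.3% for DIO2 and 53.3% for THRA.

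Arrays differed in brightness before normalization. The median signal was 56.3 to 70.8 in the colon of CS pigs, 34.2 to 42.5 in the colon of RPS pigs, and 30.6 to 37.9 in the liver. Between 61.1% and 72.2% of probes were well above background on an array. Each group lay on 1 slide of its own and was scanned once, so diet and slide cannot be told apart within a tissue. No slide held both tissues, so differences between tissues are also differences between slides. The main tissue and interaction fits treated the 16 arrays as independent, whether or not a liver and a colon came from the same pig. The tissue labels fitted their markers: of the hepatocyte markers on the array 7 of 7 were lower in the colon, and of the colonic epithelium markers 7 of 7 were higher there, by adjusted p in limma. Levels are log2 normalized intensities, errors are SDs over 4 pigs unless stated, and a difference of 1 is a doubling. In such bulk tissue, fewer cells of a type and less RNA per cell cannot be told apart.

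**Figure D1:**
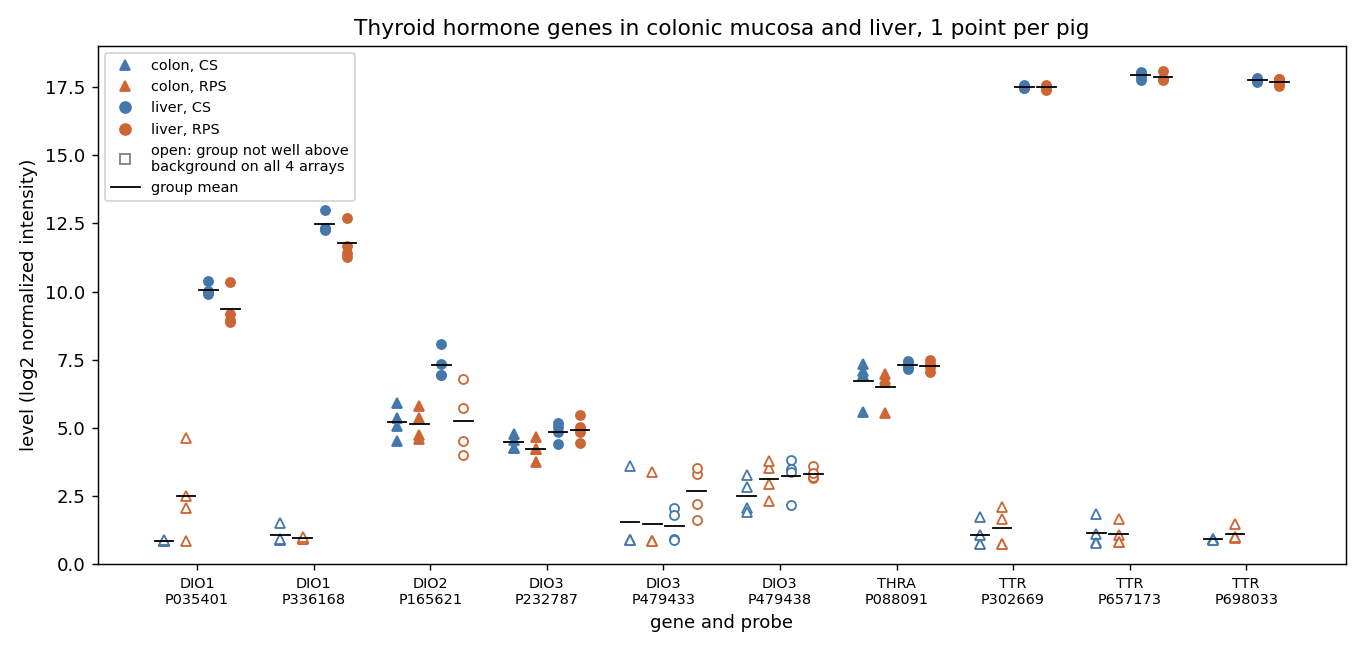
Levels of the 10 probes (vertical axis, log2 normalized intensity) by gene and probe (horizontal axis), 1 point per pig, with triangles for colonic mucosa, circles for liver, blue for CS and orange for RPS, and a bar at each group mean. Open points mark groups with at least 1 array on which the probe was near background. The TTR and DIO1 points of the liver stand far above those of the colon, while those of DIO2, DIO3 and THRA lie much closer together across the tissues.

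Transthyretin, the plasma carrier, was bright in the liver and at background in the colonic mucosa. The probe A_72_P657173 read 18.04, 18.01, 17.76 and 17.87 in the liver of the 4 CS pigs and 17.80, 17.74, 18.08 and 17.77 in that of the 4 RPS pigs. The groups overlapped, with RPS replicate 3 the highest of the 8 livers. RPS minus CS was -0.07 (SE 0.11, 95% interval -0.33 to 0.19). The other 2 probes gave -0.02 (interval -0.20 to 0.16) and -0.07 (interval -0.27 to 0.13).

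In the colonic mucosa, none of the 3 TTR probes was well above background on any of the 8 arrays, and their diet differences there of -0.04 to 0.24 are differences of background readings. Measured against the dimmest signal still well above background on each colon array, TTR was at least 28273-fold, at least 36847-fold and at least 32921-fold higher in the liver by its 3 probes. These bounds hold for the background-subtracted signals. With normexp and its added offset, the fitted TTR differences of colon minus liver were -11.33 to -11.64, which are smaller than those bounds. The spread of TTR between livers was small beside that of all probes well above background, a set not limited to probes as bright. The quantile normalization used here gives probes of the same rank the same value on every array. Its part in this small spread was not tested. The albumin gene ALB, at 18.23 with CS and 18.18 with RPS, had SDs of 0.05 and 0.10. For the 3 TTR probes the within-group SD was 0.0708, 0.143 and 0.0931. Of the 24981 probes well above background on all livers, only 1.57%, 16.3% and 4.16% had a smaller one.

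DIO1, the deiodinase that activates the hormone in liver, was likewise a liver gene. The probe A_72_P336168 read 12.25, 12.98, 12.28 and 12.33 in the liver of the CS pigs, and 11.68, 11.28, 12.68 and 11.42 in that of the RPS pigs. The other RPS pigs lay below every CS pig, but RPS replicate 3 lay among the CS pigs. The probe A_72_P035401 read between 9.91 and 10.40 with CS, the highest again CS replicate 2, and 9.19, 8.87, 10.37 and 8.96 with RPS. Both probes thus placed the same pigs high and low.

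RPS minus CS in the liver was -0.70 (SE 0.33, 95% interval -1.47 to 0.08) by A_72_P336168 and -0.73 (SE 0.33, interval -1.51 to 0.05) by A_72_P035401, with both intervals including 0. Without RPS replicate 3 the differences were -1.001 and -1.07. Pooled over the diets, DIO1 varied more between livers than most probes, but its spread was larger with RPS. The SD was 0.35 with CS and 0.63 with RPS by A_72_P336168, and 0.22 and 0.69 by A_72_P035401. The median within-group SD of probes well above background on all livers was 0.25. The within-group SD of 0.512 and 0.515 exceeded that of 88.8% and 89% of the probes well above background, and the hepatocyte markers summed to 20.54 to 20.58 with CS and 20.45 to 20.57 with RPS on the log2 scale.

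In the colonic mucosa, A_72_P336168 was not well above background on any array, and DIO1 was at least 675-fold higher in the liver by that probe. With normexp the fitted difference was smaller than this bound, at -5.82. A_72_P035401 read 0.87, 0.87, 0.86 and 0.88 in the colon of CS pigs and 2.52, 4.63, 2.05 and 0.87 in that of RPS pigs. Of these 8 values, only the 4.63 of RPS replicate 2 was well above background. The diet difference of 1.65 (SE 0.72, interval -0.03 to 3.33) in the colon was therefore one of readings mostly near the detection limit, and the second probe gave -0.10. By A_72_P035401 it was 0.94 without RPS replicate 2.

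DIO2, the other activating deiodinase, gave the largest diet difference among the 10 probes in the liver. There it read 7.34, 6.94, 6.93 and 8.07 with CS, and 5.74, 4.53, 4.01 and 6.81 with RPS. All 4 RPS pigs lay below all 4 CS pigs, but the highest RPS pig, at 6.81, was only just under the lowest CS pig, at 6.93. RPS minus CS was -2.05 (SE 0.62, interval -3.49 to -0.61), which is a 4.13-fold lower level. The SD was 1.25 in the RPS pigs and 0.54 in the CS pigs. The probe was well above background in all 4 CS livers and in 3 of the 4 RPS livers.

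RPS replicate 3, the pig whose DIO1 lay with the CS pigs, had the lowest DIO2 of the 8 livers. Leaving out 1 liver at a time, the DIO2 difference was largest when RPS replicate 4 was dropped, at -2.56, and smallest when RPS replicate 3 was dropped, at -1.63. It was -0.86 with normexp background correction, which adds 50 to every signal before the logarithm and thereby narrows differences of dim probes.

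**Figure D2:**
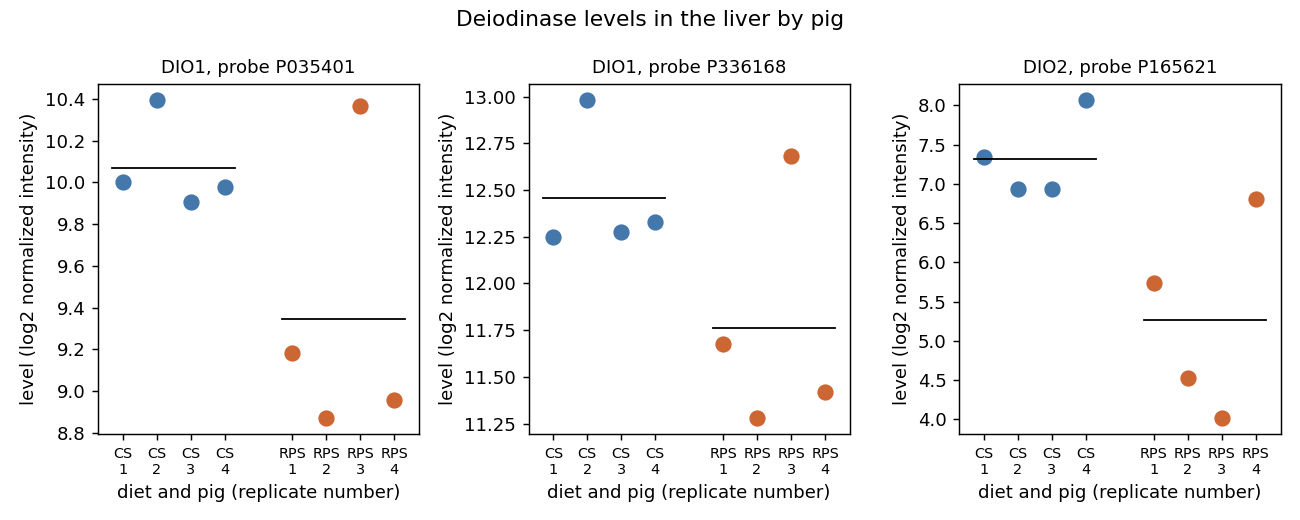
Levels in the liver (vertical axes, log2 normalized intensity, each axis with its own range that does not start at 0) of the 2 DIO1 probes and the DIO2 probe for each pig, by diet and replicate number (horizontal axes), with a bar at each group mean. RPS replicate 3 lies with the CS pigs in DIO1 and is the lowest pig in DIO2.

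DIO2 in the colonic mucosa was close between the diets. It read 5.09, 5.91, 4.51 and 5.38 with CS and 5.80, 4.74, 5.37 and 4.60 with RPS, and exceeded background clearly in all 8 colons. The groups overlapped throughout, and the difference was -0.09 (SE 0.37, interval -0.97 to 0.78). The diet difference in the colon minus that in the liver was 1.96 (SE 0.75, interval 0.35 to 3.56).

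Read within each diet, colon minus liver in DIO2 was -2.10 (SE 0.53) in CS pigs, whose tissues did not overlap, and -0.14 (SE 0.53) in RPS pigs. In order of mean level, the liver of CS pigs came first at 7.32, followed by the liver of RPS pigs at 5.27, the colon of CS pigs at 5.22 and the colon of RPS pigs at 5.13. The last 3 lay within 1 SD of each other.

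DIO3, the inactivating deiodinase, was measured well by 1 of its 3 probes. A_72_P232787 exceeded background clearly on each of the 16 arrays. It read 5.03, 4.85, 4.41 and 5.19 in the liver with CS, and 4.83, 5.47, 4.44 and 5.02 with RPS. In the colon it read 4.76, 4.56, 4.27 and 4.28 with CS, and 3.75, 4.22, 4.23 and 4.66 with RPS. The diets overlapped in both tissues. RPS minus CS was 0.07 (SE 0.25, interval -0.52 to 0.66) in the liver and -0.25 (SE 0.21, interval -0.75 to 0.25) in the colon, and colon minus liver was -0.56 (SE 0.17).

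The other DIO3 probes were dim. A_72_P479433 was well above background on 2 of 16 arrays, CS replicate 2 at 3.59 and RPS replicate 2 at 3.40 in the colon, and A_72_P479438 on 4 of 16, all of them colon. In the liver A_72_P479433 differed by 1.26 between diets (SE 0.49, interval 0.11 to 2.42) with 0 of 8 livers well above background. The brighter DIO3 probe gave 0.07 on the same livers.

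THRA, which encodes thyroid hormone receptor alpha, was even in the liver and uneven in the colonic mucosa. It read 7.22, 7.45, 7.35 and 7.15 in the liver with CS, and 7.50, 7.33, 7.23 and 7.05 with RPS. The diets overlapped, and RPS minus CS was -0.02 (SE 0.12, interval -0.30 to 0.27). In the colon it read 7.33, 6.94, 5.58 and 7.10 with CS, and 6.69, 5.56, 6.79 and 6.98 with RPS. In each diet 1 pig was low, CS replicate 3 and RPS replicate 2, and the diet difference was -0.23 (SE 0.47, interval -1.33 to 0.86).

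The pigs low in colonic THRA also had the lowest summed level of the 7 epithelial markers, 17.84 and 18.44 against 19.42 to 19.88 in the other 6 colons. Their 6 T and B lineage markers summed to 14.03 and 13.59, against 10.51 to 12.31 in the others. The part of tissue composition in the THRA values was not tested. Of the probes well above background on every array, 83.2% had a smaller within-group SD than THRA in the colon, and 22.1% in the liver. Colon minus liver was -0.67 (SE 0.25) for THRA, and -0.32 without those 2 colon arrays.

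**Figure D3:**
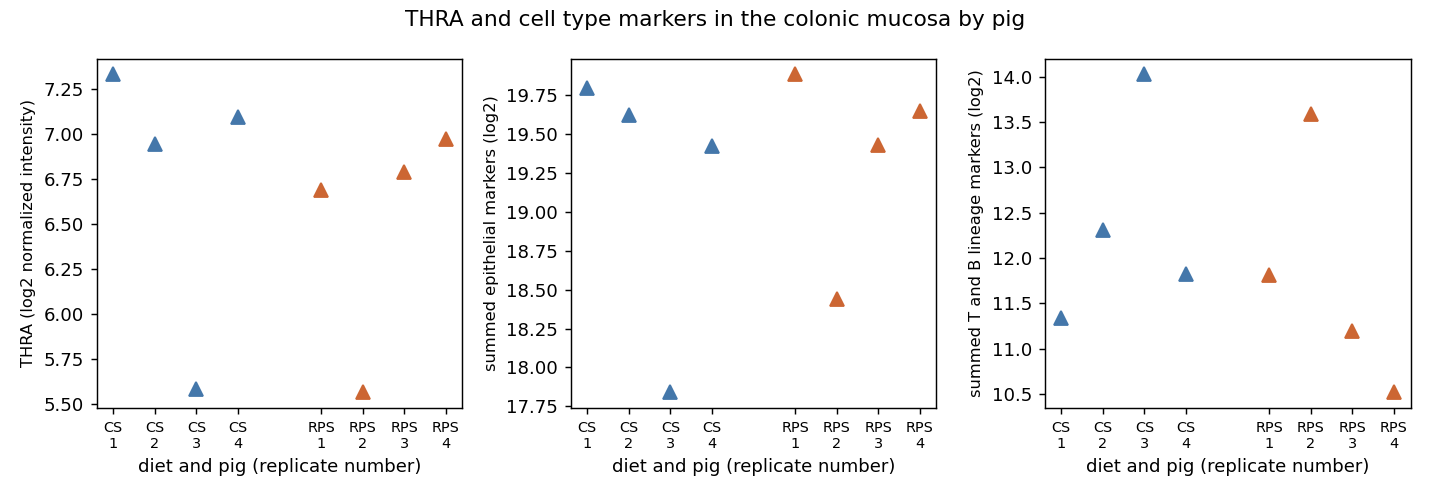
THRA (left, log2 normalized intensity), the summed epithelial markers (middle, log2) and the summed T and B lineage markers (right, log2) in the colonic mucosa of each pig, by diet and replicate number, with vertical axes that do not start at 0. CS replicate 3 and RPS replicate 2 are lowest in the left and middle panels and highest in the right panel.

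The receptor beta gene was represented only outside the naming rule, by probes found after the files were seen. A_72_P305869, listed under the older name C-ERBA-B1 and matched to THRB by its accession, read 4.50 to 5.64 in the 8 livers and 1.72 to 3.55 in the 8 colons. A_72_P535133, described as similar to dog thyroid hormone receptor beta over part of its length, read 6.32 to 7.69 in the liver and 3.51 to 4.91 in the colon. Colon minus liver was -2.77 (SE 0.24) and -2.64 (SE 0.23), and the tissues did not overlap for either probe. A_72_P305869 was well above background in only 2 of the 8 colons, so its value is one against readings near background, and with normexp it was -0.54. RPS minus CS was -0.25 (SE 0.24) and 0.04 (SE 0.28) in the liver, and -0.53 (SE 0.40) and -0.10 (SE 0.36) in the colon.

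Counted together, 8 of the 10 probes passed an adjusted p of 0.05 in colon against liver with limma, all 8 lower in the colon, where 52.9% of all probes passed and 24.0% passed and were lower. The exceptions were the 2 dim DIO3 probes. By diet in the liver, 2 of the 10 probes passed an unadjusted p of 0.05 with more than 1.5-fold, DIO2 lower and the dim DIO3 probe A_72_P479433 higher, against 3.60% of all probes. With the methods' t-test only DIO2 passed in the liver, against 1159 of the 43603 probes. By diet in the colon 0 of the 10 passed both thresholds by limma, against 2.79% of all probes. There 0 had an unadjusted p under 0.05 by limma, against 5.22% of all probes. With the methods' t-test 0 of the 10 passed both thresholds in the colon, against 927 of the 43603 probes.

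After adjustment over all probes, 0 of the 10 passed by diet in the colon (0% of all probes) and 0 in the liver (0.00229% of all probes), where 2 had an unadjusted p under 0.05 by limma, as had 7.51% of all probes. The difference of the diet effect between the tissues passed for 0 of the 10 (0.00229% of all probes), and 2 had an unadjusted p under 0.05, DIO2 and the DIO1 probe A_72_P035401, as had 4.72% of all probes. The median RPS minus CS over the 10 probes was -0.05 in the liver and -0.06 in the colon, and over all probes it was -0.005 and 0.013. Since the members were proposed with these comparisons in view, the counts are given as a description.

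**Figure D4:**
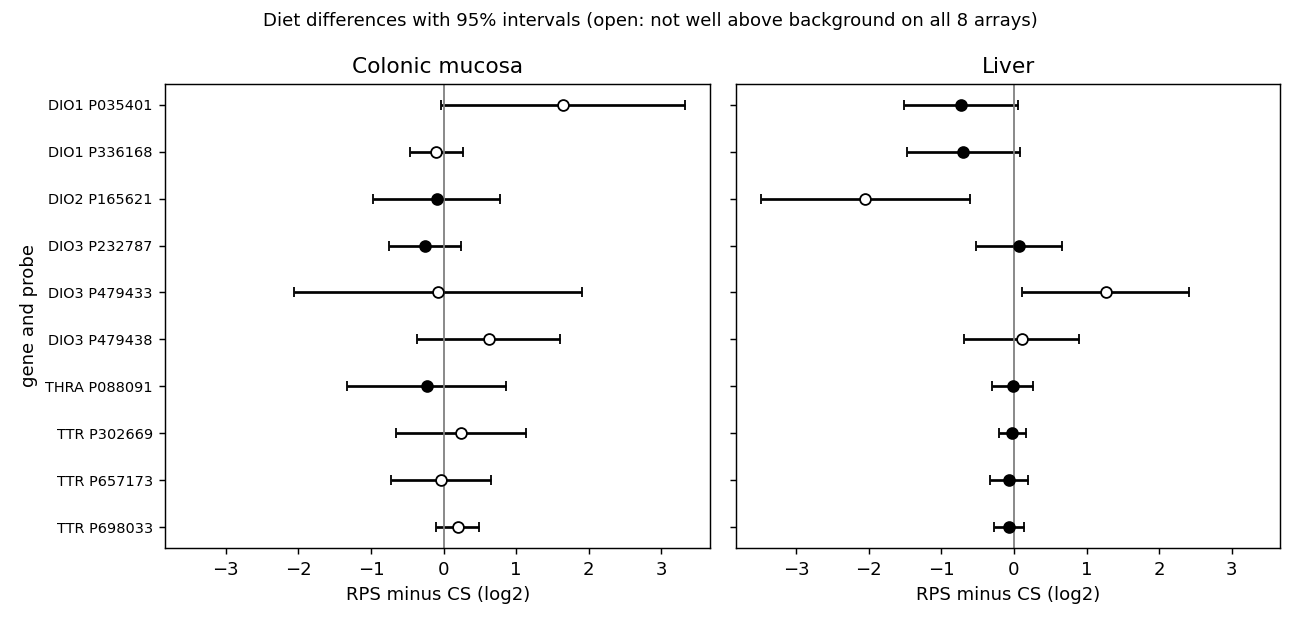
RPS minus CS (horizontal axes, log2) for the 10 probes in the colonic mucosa and the liver, with 95% intervals from limma as bars. Open points mark probes near background on at least 1 of the 8 arrays, and only DIO2 and DIO3 A_72_P479433 in the liver have intervals that leave out 0.

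Genes around these members were read from 5 lists of thyroid hormone synthesis, carriage and uptake, receptor partners, selenoprotein synthesis and hormone-responsive metabolism. Of 63 listed genes 46 had a named probe, and each was read at its brightest one. The shares of all probes set beside these genes include dimmer probes, so they are not like for like. By diet in the liver 0 rose and 3 fell by an unadjusted p of 0.05 with more than 1.5-fold, where 1.77% of all probes rose and 1.83% fell. In the colon 1 rose and 1 fell, where 1.55% of all probes rose and 1.25% fell. The genes described next were named because they passed this threshold, so their levels illustrate the count and add no evidence to it. None passed adjustment over all probes in either tissue by limma.

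Among the carriers, SERPINA7, which encodes thyroxine-binding globulin, fell in the liver. It read 13.83, 14.20, 14.42 and 14.13 with CS, and 13.28, 13.30, 13.77 and 13.52 with RPS. All 4 RPS livers lay below all CS livers. The difference was -0.68 (SE 0.16, limma adjusted p = 0.426), and a second SERPINA7 probe gave -0.76. Without CS replicate 3 it was -0.584, just under 1.5-fold. For the albumin gene ALB the difference was -0.05 (SE 0.08), and for TTR it was given above as -0.07 or less in size.

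Of the hormone-responsive metabolic genes, CPT1A, which encodes the carnitine palmitoyltransferase that admits fatty acids to mitochondria for oxidation, fell in the liver. It read 11.71, 12.42, 13.54 and 12.76 with CS, and 11.30, 11.08, 11.12 and 11.77 with RPS. Only the lowest CS pig and the highest RPS pig overlapped. The difference was -1.29 (SE 0.38, limma adjusted p = 0.517). All 6 CPT1A probes were lower with RPS, by -1.13 to -1.46, each with an unadjusted p under 0.05. In the colon CPT1A differed by -0.06 (SE 0.32).

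Other hormone-responsive genes of the liver did not pass. The lipogenic enzyme gene FASN differed by 1.15 (SE 0.71), the bile acid synthesis enzyme gene CYP7A1 by 1.02 (SE 0.75), and KLF9, a transcription factor induced by thyroid hormone, by 0.10 (SE 0.26). RXRG, a retinoid X receptor gene, passed the unadjusted threshold in the liver with -0.91 (SE 0.39), but was not well above background in any of the 8 livers, and it missed that threshold without any 1 of 7 livers, CS replicate 4 being the exception. The RXRG probes A_72_P290179 and A_72_P570584 gave -0.10 and -0.02 in the liver, also with 0 livers well above background. No gene of the selenoprotein list passed by diet, with 3 of its 8 genes on the array.

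In the colonic mucosa TG, which encodes thyroglobulin, the protein precursor of the hormone in the thyroid, rose. It read 5.70, 6.08, 6.04 and 6.001 with CS, and 6.27, 6.65, 7.06 and 6.78 with RPS, with no overlap. The difference was 0.74 (SE 0.18, limma adjusted p = 0.566). Of the 9 TG probes only this one had an unadjusted p under 0.05, and the only other probe well above background on all colon arrays gave 0.37. SLC7A8, an amino acid transporter gene whose product also carries thyroid hormones, fell by 0.91 (SE 0.36, limma adjusted p = 0.92), from 4.65 to 5.46 with CS to 3.15 to 4.81 with RPS. It missed the unadjusted threshold without CS replicate 1 or 2 or without RPS replicate 1, 3 or 4, and with the methods' t-test. All 3 SLC7A8 probes were lower with RPS in the colon, by -0.54 to -1.515, and 2 had an unadjusted p under 0.05 by limma. None of the 3 was well above background on all 8 colon arrays. In the liver all 3 were lower as well, by -0.41 to -1.03, and 0 had an unadjusted p under 0.05.

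**Figure D5:**
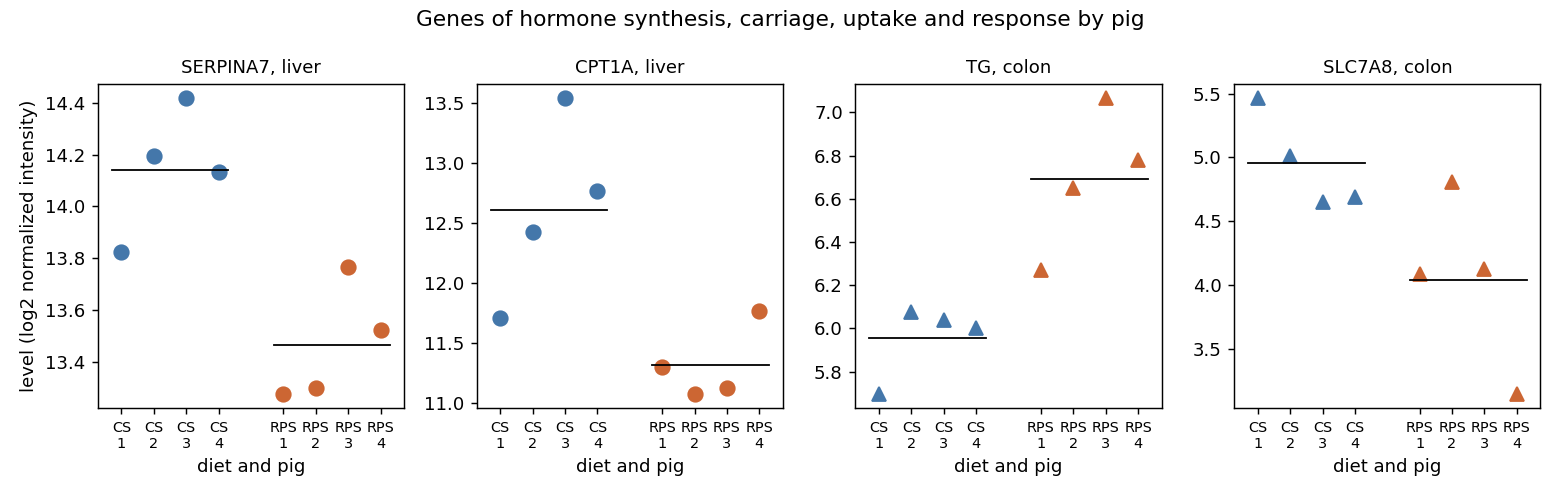
Levels (vertical axes, log2 normalized intensity, with ranges that do not start at 0) of SERPINA7 and CPT1A in the liver and TG and SLC7A8 in the colonic mucosa, by diet and pig, with a bar at each group mean. The diets do not overlap for SERPINA7 and TG, and overlap for CPT1A and SLC7A8.

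By tissue, 13 of the 46 genes, each at its brightest probe, were higher in the colon and 22 lower at an adjusted p of 0.05 by limma. Of all probes, dimmer ones included, 28.9% were higher and 24.0% lower. TSHR, among the lower, was not well above background on any array. In the synthesis list, DUOX2 and DUOXA2, the oxidase and its maturation factor that supply hydrogen peroxide, were higher in the colon by 9.63 (adjusted p = 2.64e-10) and 7.78 (adjusted p = 6.74e-09). IYD, the iodotyrosine deiodinase, was lower there by a difference of -3.82 (adjusted p = 0.00065). The TRH receptor gene TRHR was dim, well above background in 4 of 8 colons and 5 of 8 livers, and read -1.13 (adjusted p = 0.0056), or -0.14 with normexp.

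Of the carriers and transporters, 4 of 5 were lower in the colon and none higher. ALB differed by -14.9 (adjusted p = 7.43e-16). SLC10A1, the hepatic bile acid transporter, was not well above background in any colon and was at least 3232-fold higher in the liver (adjusted p = 1.94e-15), with a fitted difference of -7.85, smaller than this bound, with normexp.

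Of the receptor partners and coregulators, 7 of 11 were higher in the colon and 2 lower. RXRG was at least 12.1-fold higher in the colon (adjusted p = 9.33e-09), with no liver well above background, but the fitted difference with normexp was 1.35. The coactivator gene NCOA3 differed by 1.72 (adjusted p = 8.6e-06). The coactivator NCOA2 and the mediator subunit MED1 were lower in the colon, by -1.498 (adjusted p = 3.25e-08) and -1.08 (adjusted p = 0.000104).

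Of the selenoprotein genes, SECISBP2, which binds the selenocysteine insertion element, was higher in the colon by 0.59 (adjusted p = 3.01e-05), and SEPHS2, a selenophosphate synthetase, was lower with -0.75 (adjusted p = 2.02e-05). In the metabolic list, 2 of 15 were higher in the colon and 10 lower. UCP2, a mitochondrial carrier, and HR, a corepressor, were higher by 3.14 (adjusted p = 1.08e-05) and 0.56 (adjusted p = 0.005), and CYP7A1 and the glucose-responsive factor MLXIPL were lower with -7.98 (adjusted p = 1.54e-08) and -6.27 (adjusted p = 2.55e-10).

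The genes whose levels ran most like those of a member over the 8 arrays of a tissue were named by Pearson r, as a description without a test, since they were picked as the highest of 10610 to 10954 probes on the same arrays. For DIO1 in the liver PRKCE and SLC16A12 were among them (r 0.97 for each). For THRA they were FRZB, ADAMTS17 and ACVR1 in the colon (0.98 to 0.99), and HSP90AA1, CRTAC1 and ATM in the liver (0.96 to 0.98). For DIO2 in the colon they were ANKS1B, CCL5 and AQP8, for TTR in the liver LPCAT1, CDC42SE1 and MGAT1, and for DIO3 GSDMA, DIRAS3 and CPNE3 in the colon and UQCRB, HBE1 and TESK1 in the liver. DIO2 in the liver was not ranked, because 1 of the 8 livers was not well above background.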

How the data were processed

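Liver and colonic mucosa RNA of 16 samples was hybridized to 1-color Agilent porcine arrays without pooling. The authors scanned each array and had Agilent Feature Extraction 10.7 write the background-subtracted intensity of every spot, with its outlier and well-above-background marks, per the file headers. The deposited log2 values, which the authors quantile normalized, served as an alternative.

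The intensities of non-control spots were put on the log2 scale, outlier spots were set to missing, the 16 arrays were quantile normalized together, and spots of a probe were averaged. RPS minus CS was fitted within each tissue, and colon minus liver and the interaction over the 4 groups, with limma 3.58.1 in R 4.3.3, adjusting p-values by Benjamini-Hochberg over 43603 probes. Thresholds were an adjusted p of 0.05, or an unadjusted p of 0.05 with 1.5-fold. The number of arrays limits the precision. Marker levels were summed on the linear scale over the brightest probe of each gene. Scripts were tested on simulated data. The members and lists were chosen with earlier results of these data known. Of the listed genes, those past the unadjusted thresholds by diet and, between tissues, the 2 largest each way per list were named. Symbols came from the files and a RefSeq table, for 13692 probes. The array files name no genome position for these probes, so no coordinates are given. Figures were drawn with matplotlib.

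The largest absolute difference between the deposited log2 values and those computed here was 0.393. One gene among those most like DIO1 is not reported here.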

Additional observations from a re-analysis of the deposited data

Results flagged for a closer look

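In each group of 4 pigs, a value was singled out where its gap to the nearest pig, as a share of the whole range, exceeded Dixon's 95% critical value for 4 samples. Of 40 such groups over the 10 probes, 6 held one, and chance alone gives about 1 in 20. In the liver, DIO1 (A_72_P336168) was high in CS replicate 2 at 12.98, with the next CS pig at 12.33, and TTR (A_72_P657173) was high in RPS replicate 3 at 18.08, with the next RPS pig at 17.80. The others were dim readings in the colonic mucosa. DIO3 (A_72_P479433) read 3.59 in CS replicate 2 and 3.40 in RPS replicate 2, the only arrays on which that probe was well above background. DIO1 (A_72_P336168) read 1.51 in CS replicate 1 and TTR (A_72_P698033) read 1.47 in RPS replicate 1, both not well above background.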

How the results depend on the processing

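The member probes past both diet thresholds in the colon were 0. They were 2 with scaling to the 75th percentile (DIO1 A_72_P035401 and TTR A_72_P698033, the latter at background in every colon), and 1 each with quantile normalization over 8 arrays, an intensity trend, or all 16 arrays in 1 fit (DIO1 A_72_P035401). With the replicate block the count was 1 (DIO3 A_72_P479438). Leaving out 1 colon array gave 0 to 1, the 1 being DIO1 A_72_P035401 without RPS replicate 2 or 4. In the liver the count of 2 became 1 (DIO2) with normexp background correction or the methods' t-test. It was 1 to 4 without 1 array, with 4 when RPS replicate 3 was left out. With the replicate block it was 2. Over all 43603 probes, the count past both thresholds was 1436 to 2057 without 1 liver array and 1031 to 2551 without 1 colon array. Over all the alternatives run, that count ranged from 160 to 2551 in the colon and from 221 to 2057 in the liver. Members with an adjusted p under 0.05 by diet remained 0 under every alternative. In colon against liver, 7 or 8 probes passed throughout. Of these, THRA was no longer counted with the replicate block and without colon RPS replicate 2, liver CS replicate 1, 2 or 3, or liver RPS replicate 1, 2 or 3, DIO2 with slide as a random block and without both low colon arrays (added after seeing the data), and DIO3 A_72_P232787 with scaling to the 75th percentile and with normexp. No called member changed direction in the alternatives run. Of the 46 pathway genes, 0 to 3 were higher and 0 to 2 lower by diet in the colon, 0 to 1 and 1 to 3 in the liver, and 13 to 14 and 20 to 23 between tissues. With normexp neither TG, at 0.40, nor SLC7A8 passed in the colon.

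Over all probes, the count past both diet thresholds in the colon was 1218, and 1968 with scaling to the 75th percentile, 160 with normexp, 808 among probes above background, 2551 without RPS replicate 2, and 2374 without both low colon arrays. In the liver it was 1569, and 221 with normexp and 918 among probes above background. Colonic adjusted calls by diet over all probes ranged from 0 to 27. Hepatic ones numbered 0 to 11, both highest with all 16 arrays in 1 fit, and those of the interaction 0 to 6. Replicate numbers were not taken to pair samples, since same-numbered samples departed from their group means with a correlation of 0.159 to 0.334 across tissues for CS, where 8 of 8 samples correlated best with their own number, but -0.0764 to 0.0732 for RPS, where 1 of 8 did, and of -0.507 to 0.549 (colon) and -0.164 to 0.108 (liver) across diets. Signals near background limit the DIO1 and TTR values of the colon and the dim DIO3 probes.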

Other observations

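One further probe carried a deiodinase in its description without meeting the naming rule. A_72_P015301 was described as similar to chicken type I iodothyronine deiodinase over a small part of its length. It read 7.16 to 7.88 in the 8 livers and 9.35 to 12.71 in the 8 colons, with a difference of 3.25 (SE 0.34) in favor of the colon, opposite to both DIO1 probes. The highest colons were CS replicate 3 at 12.71 and RPS replicate 2 at 11.23, the pigs lowest in THRA. Its transcript was not identified here. The smooth muscle markers of the colon summed to 14.76 to 14.88 with CS and 14.11 to 14.51 with RPS, and the adipocyte markers to 15.85 in CS replicate 4 against 9.49 to 11.76 in the other 7 colons.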
